A study of Mus musculus with 30 samples.

Results

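Messenger RNA of 10 apoptosis genes was followed through the mouse testis from birth to postnatal day 14. The genes were taken by symbol from the deposited expression table. They are the survival genes Bcl2, Bcl2l1 and Mcl1, the effectors Bax and Bak1, the BH3-only genes Bbc3 and Bcl2l11, and the p53 family genes Trp53, Trp63 and Trp73. All 10 were found among 20889 symbols. The table gives FPKM, fragments scaled by transcript length and by the library's mapped total, with 1 value for each of 11 groups. All groups were spermatogonial preparations labelled C57BL/6. Cells bound to THY1 beads came from postnatal days 0, 7, 12 and 14 (P0, P7, P12 and P14), and cells bound to KIT beads from P7, P12 and P14. THY1 is a surface protein of undifferentiated spermatogonia and KIT the receptor of differentiating ones. OCT4-GFP cells at P0 and P7 and ID4-GFP cells at P7 were sorted by fluorescence from reporter mice, with propidium iodide used to exclude dead cells. The remaining group carries the label P7 VASA THY1. Its age is uncertain, because the protocol names a VASA-GFP sort at P0 alone. The THY1 groups at P0, P7 and P12 and the KIT groups at P7 and P12 stand for 2 libraries each, and the other 6 groups for 1 each.

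With 1 value per group no difference has a replicate check, so no test was run and all statements describe these columns. The germ cell gene Ddx4 stood between 65.0 and 248 FPKM in the 11 columns. Other testis cells were present in differing amounts. Summed over 7 fibroblast and stroma markers, P0 THY1 held 6728 FPKM and the other columns 25.8 to 1326 FPKM. Summed over 10 late meiotic and spermatid markers, P14 THY1 held 2876 FPKM, P7 THY1 235 FPKM and the other columns 11.2 to 92.3 FPKM. In such bulk samples, fewer cells of a type and less RNA per cell cannot be told apart.

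Proteins of the BCL2 family decide whether the outer membrane of mitochondria stays intact. BCL2, BCL-XL (from Bcl2l1) and MCL1 hold back BAX and BAK, which otherwise form pores and let cytochrome c escape to start the caspases. PUMA (from Bbc3) and BIM (from Bcl2l11) neutralise the survival proteins through their BH3 segment. The transcription factor p53 (from Trp53) turns on PUMA and other death and arrest genes after DNA damage. Its relatives p63 and p73 bind related DNA. In the young testis, a wave of germ cell death accompanies the start of spermatogenesis, and mice without Bax keep surplus spermatogonia.

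The upstream sequences of 3 members are shown because the results below name them often. Bax and Trp53 were both higher in the P7 than in the P0 column of THY1 and of OCT4-GFP cells, and Mcl1 separated bead-selected from GFP-sorted cells. Windows came from RefSeq promoter tables on GRCm38.p6, whereas the FPKM table names mm9. There were 15 windows for 9 of the 10 members, each from 250 bases before a start to 50 after it. No window was matched for Trp63. The stretches below end at the base before the start and run in the direction of the gene. Those of Trp53 (chr11:69580259-69580358, plus strand) and Mcl1 (chr3:95658621-95658720, plus strand) hold 100 bases, and that of Bax (chr7:45466899-45467108, minus strand) holds 210. Capitals mark the p53 decamer and the E-box CACGTG in Bax, the p53 decamer in Trp53 and the ETS core CCGGAAG in Mcl1.
Bax: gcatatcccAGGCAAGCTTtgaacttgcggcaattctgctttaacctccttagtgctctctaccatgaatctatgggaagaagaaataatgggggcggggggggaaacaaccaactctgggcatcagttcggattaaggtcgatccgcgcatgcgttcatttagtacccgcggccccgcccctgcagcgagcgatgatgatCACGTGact
Trp53: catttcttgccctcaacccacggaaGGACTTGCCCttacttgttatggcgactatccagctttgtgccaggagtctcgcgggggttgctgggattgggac
Mcl1: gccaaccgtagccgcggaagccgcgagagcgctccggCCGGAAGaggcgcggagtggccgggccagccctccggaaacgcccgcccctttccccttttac
Both strands were searched over each whole window. The E-box was in 7.15% of all 32851 windows, and among the members in those of Bax (2 matches), Trp53 (1) and Bbc3 (1 of its 3 windows). The p53 decamer was in 8.36% of all windows, and among the members in those of Bax and Trp53. The ETS core was in 8.86% of all windows, and in 1 window each of Mcl1, Bcl2l1 and Bcl2l11. Each match is a description of the letters, and binding was not measured here.

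Among the survival genes, Mcl1 was the most abundant except in P14 THY1, where Bcl2l1 was, and Bcl2 reached 5 FPKM only in P0 THY1. Bcl2 stood in THY1 cells at 9.31, 4.25, 3.05 and 1.27 FPKM at P0, P7, P12 and P14. In KIT cells it stood at 2.80, 1.43 and 0.363 FPKM at P7, P12 and P14. It was thus lower at each later age in both series and lower in KIT than in THY1 cells at every shared age. OCT4-GFP cells held 0.590 FPKM at P0 and 0.503 FPKM at P7, ID4-GFP cells 0.673 FPKM and P7 VASA THY1 cells 0.620 FPKM, an order kept below. These sit below all bead columns except P14 KIT. Peritubular myoid markers, 6 of 6 in the table, sum to 942, 141, 257 and 67.0 FPKM in the THY1 columns by age. They sum to 58.0, 46.9 and 4.74 FPKM in the KIT columns and to 3.27 to 31.5 FPKM in the remaining 4. Endothelial markers sum to 176, 117, 68.9 and 23.3 FPKM in the THY1 columns by age. They sum to 140, 43.2 and 5.83 FPKM in the KIT columns and to 5.73 to 18.04 FPKM in the remaining 4. Across the 11 columns Pearson's r of the log2 marker sum with Bcl2 was 0.92 for endothelial and 0.90 for myoid markers, as a description. The part of either cell type in the Bcl2 values was not tested.

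Bcl2l1, which encodes BCL-XL, stood at 40.3, 34.9, 34.6 and 67.0 FPKM in THY1 cells from P0 to P14. KIT cells held 35.7, 35.3 and 42.3 FPKM from P7 to P14. The GFP and VASA columns held 29.8, 35.3, 34.5 and 29.3 FPKM. Apart from P14 THY1, all columns lay between 29.3 and 42.3 FPKM. The highest value was 2.29 times the lowest. Of the 12064 genes above 0 in every column and at 5 FPKM or more in at least 1, 20.7% had a smaller span. Their median span was 3.48 times.

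Mcl1, the gene of a short-lived survival protein, stood at 124, 130.2, 129 and 60.3 FPKM in THY1 cells from P0 to P14. KIT cells held 85.4, 80.7 and 60.8 FPKM. The GFP and VASA columns held 42.2, 44.5, 47.5 and 40.3 FPKM in the order used above. All 7 bead columns were therefore above all 4 GFP and VASA columns, and the first 3 THY1 ages stood apart at the top.

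**Figure D1:**
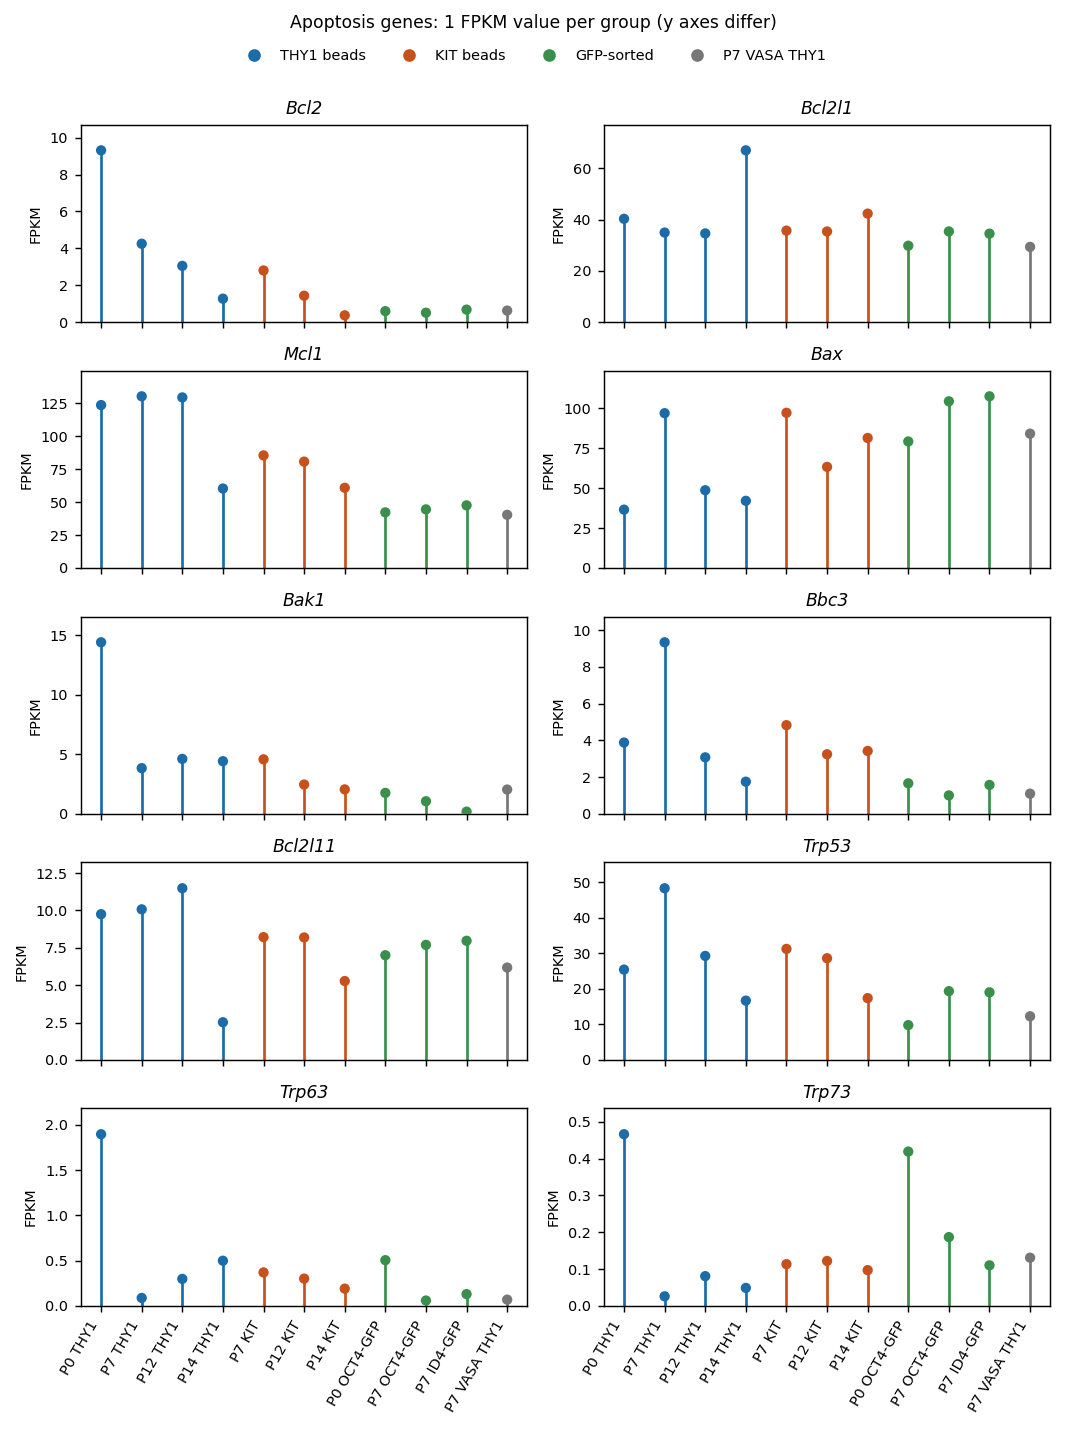
FPKM of each of the 10 genes (y axis, linear from 0, a scale of its own per gene) in the 11 groups (x axis), 1 point per group and no error bars because the table has 1 value per group. Bcl2 is lower at each later age, Bcl2l1 is level except in P14 THY1 at 67.0 FPKM, and Bbc3 and Trp53 are highest in P7 THY1 at 9.34 and 48.3 FPKM.

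The effectors differed in level and in pattern. Bax stood at 36.6, 97.0, 48.7 and 42.1 FPKM in THY1 cells and at 97.3, 63.4 and 81.5 FPKM in KIT cells, by age. The GFP and VASA columns held 79.3, 104, 108 and 84.2 FPKM in the same order as for Bcl2. In the 5 columns labelled P7, then, Bax stood at 84.2 to 108 FPKM. The low values were those of THY1 cells at P0, P12 and P14. Bax lay above 88.9% to 97.2% of all genes in every column. The same 3 columns were the highest for fibroblast and stroma markers, at 6728, 439 and 1326 FPKM against 25.8 to 347 FPKM elsewhere. Across the 11 columns the log2 sum of these markers had Pearson's r of -0.81 with Bax, as a description. Their part in the Bax values was not tested.

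Bak1 stood at 14.4, 3.85, 4.63 and 4.43 FPKM in THY1 cells from P0 to P14. KIT cells held 4.59, 2.47 and 2.06 FPKM. The GFP and VASA columns held 1.77, 1.07, 0.194 and 2.05 FPKM, lowest in ID4-GFP cells. The range from 0.194 to 14.4 FPKM is 74.5-fold, the widest of the 10 genes. Bax exceeded Bak1 in every column, 2.53-fold in P0 THY1 and 556-fold in P7 ID4-GFP. The 74.5-fold range and the 556-fold ratio rest on the 0.194 FPKM of P7 ID4-GFP, a low value from 1 library. The next lowest Bak1 value was 1.07 FPKM. Fibroblast markers summed to 25.8 FPKM in P7 ID4-GFP and to 6728 FPKM in P0 THY1, the same ends of the range. Their part in the Bak1 values was not tested.

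Of the BH3-only genes, Bbc3 had a single high column and Bcl2l11 a single low one. Bbc3 stood at 3.89, 9.34, 3.08 and 1.76 FPKM in THY1 cells, by age, and at 4.83, 3.25 and 3.43 FPKM in KIT cells. The GFP and VASA columns held 1.67, 1.01, 1.58 and 1.10 FPKM, all below the lowest bead column. P7 THY1 was 1.93 times the next column, P7 KIT. P7 THY1 also stands apart by its red cell markers (86.6 FPKM over 3 genes, against 0.177 to 8.14 FPKM elsewhere), and whether both share a source was not tested.

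Bcl2l11 stood at 9.75, 10.1, 11.5 and 2.52 FPKM in THY1 cells from P0 to P14. KIT cells held 8.21, 8.19 and 5.27 FPKM, and the GFP and VASA columns 7.00, 7.69, 7.97 and 6.18 FPKM. The P14 columns were the lowest in both bead series. Late meiotic and spermatid markers were highest in the same P14 THY1 column, and in P14 KIT (92.3 FPKM) they were higher than in the earlier KIT columns (11.2 and 17.6 FPKM). P7 THY1 held more of these markers than P14 KIT, at 235 FPKM, with Bcl2l11 at 10.1 FPKM. Their part in the Bcl2l11 values was not tested.

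In the p53 family, Trp53 was well expressed everywhere, while Trp63 and Trp73 were near the lower end of the table. Trp53 stood at 25.4, 48.3, 29.2 and 16.7 FPKM in THY1 cells, at 31.2, 28.6 and 17.4 FPKM in KIT cells and at 9.79, 19.3, 19.0 and 12.3 FPKM in the GFP and VASA columns. Among bead columns of 1 age the value was alike at P12 and P14 and differed at P7. A processed Trp53 pseudogene exists in mouse, and how shared reads were counted is not given in the sources used here.

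Trp63, known from skin and from oocytes, stood at 1.90, 0.0879, 0.298 and 0.499 FPKM in THY1 cells. KIT cells held 0.370, 0.301 and 0.191 FPKM, and the GFP and VASA columns 0.505, 0.0593, 0.130 and 0.0690 FPKM. Only P0 THY1 exceeded 1 FPKM. Basal epithelium markers, 5 of 5 in the table, summed to 19.8 FPKM there, to 5.03 FPKM in P0 OCT4-GFP and to 0.0210 to 1.84 FPKM elsewhere. Their part in the Trp63 value was not tested. Trp73, known for a role in the contact of germ cells with Sertoli cells, stood at 0.466, 0.0260, 0.0807 and 0.0488 FPKM in THY1 cells. KIT cells held 0.113, 0.122 and 0.0971 FPKM. The GFP and VASA columns held 0.419, 0.187, 0.110 and 0.131 FPKM, so the P0 columns were the highest 2 of the 11. Such values rest on few fragments and their order among the P7 to P14 columns cannot be read with confidence.

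Because FPKM is per length, the levels of different genes within a column can be set side by side. The sum of Bcl2, Bcl2l1 and Mcl1 was 129 to 173 FPKM in the THY1 columns, 103 to 124 FPKM in the KIT columns and 70.3 to 82.7 FPKM in the GFP and VASA columns. These ranges did not overlap, but how often genes separate the columns in this way was not counted. P7 VASA THY1 held the 70.3 FPKM, and placed with the THY1 columns it would make the ranges overlap. The sum of Bax and Bak1 was 46.5 to 101 FPKM, 65.8 to 102 FPKM and 81.1 to 108 FPKM in the same sets, which overlapped. The ratio of effector to survival sum was 0.295, 0.595, 0.320 and 0.362 in THY1 cells from P0 to P14. It was 0.822, 0.561 and 0.807 in KIT cells and 1.12, 1.31, 1.30 and 1.23 in the GFP and VASA columns. KIT exceeded THY1 cells at each shared age. At P7 this rests on the P7 THY1 column, since P7 VASA THY1, of uncertain age, stood at 1.23, above P7 KIT at 0.822. The effector sum exceeded the survival sum only in the GFP and VASA columns. These sums of messages say nothing of protein amounts.

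**Figure D2:**
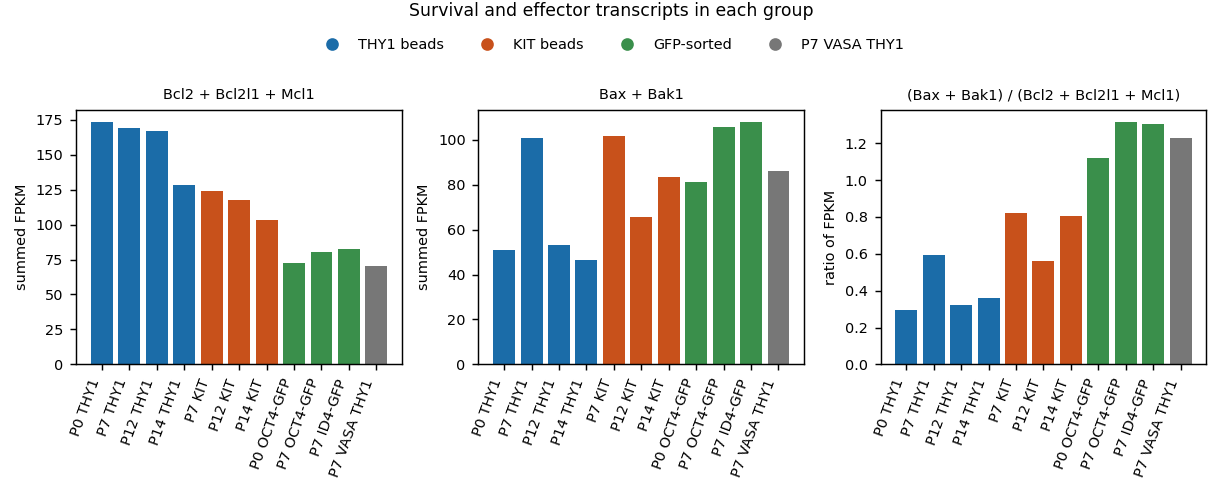
Summed FPKM of the 3 survival genes, summed FPKM of the 2 effectors and the ratio of the second to the first (y axes, linear from 0) in the 11 groups (x axis), 1 bar per group with no error bars. The survival sum was 129 to 173 FPKM in THY1, 103 to 124 FPKM in KIT and 70.3 to 82.7 FPKM in GFP and VASA columns, with P7 VASA THY1 at 70.3 FPKM.

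Pairs of single genes gave the same picture only in part. The ratio of Bax to Bcl2l1 was 0.908, 2.78, 1.41 and 0.628 in THY1 cells and 2.73, 1.79 and 1.93 in KIT cells, by age. It was 2.66, 2.96, 3.12 and 2.87 in the GFP and VASA columns. The THY1 and KIT columns were close at P7 and far apart at P14. The ratio of Bax to Bcl2 ran from 3.93 in P0 THY1 to 225 in P14 KIT. The ratio of Mcl1 to Bcl2l11 was 9.85 to 23.9 in the bead columns and 5.78 to 6.53 in the GFP and VASA columns.

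The comparison of KIT with THY1 cells asks how differentiating spermatogonia differ from the pool that holds the stem cells. None of the 10 genes was counted as 2-fold different at any of the 3 ages. The difference is taken on log2(FPKM + 1), which understates that of low genes, and a gene was counted at 1 or more on this scale with 5 FPKM or more in the higher column. Among members reaching 1 FPKM in either column, by plain FPKM ratios, Bcl2 at P12 (2.13) and P14 (3.49) and Bak1 at P14 (2.15) were more than 2 times as high in THY1 cells, and Bcl2l11 at P14 (2.09) in KIT cells. At P7, 6 members had 5 FPKM or more in a column and 0 were counted, against 5.51% of the 9817 genes that did. At P12 it was 0 of 5, against 11.2% of 10106 genes, and at P14 0 of 5, against 24.2% of 10015 genes. The median difference of those members was -0.43, -0.03 and 0.06 at P7, P12 and P14, beside 0.03, 0.02 and 0.12 over all genes with 5 FPKM or more.

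Below that bound, Bcl2 and Trp73 kept 1 sign over the 3 ages, which share no column. Bcl2 was lower in KIT cells by 0.47, 0.74 and 0.73 on the log2 scale at P7, P12 and P14, but higher by 1.23 at P7 when P7 VASA THY1 took the place of P7 THY1. Trp73 had 1 sign as well (0.12, 0.05 and 0.06), at levels too low to read. Mcl1 differed by -0.60, -0.67 and 0.01, and Trp53 by -0.61, -0.03 and 0.06, so that neither differed at P14 by more than 0.1. Bax differed by 0.00, 0.37 and 0.94, from 42.1 FPKM in THY1 to 81.5 FPKM in KIT cells at P14. It was level at P7 (97.3 against 97.0 FPKM) and stood there at -0.04 under median-ratio scaling, so it has no sign at P7. Bcl2l1 differed by 0.03, 0.03 and -0.65. Bak1 differed by 0.21, -0.70 and -0.83, Bbc3 by -0.83, 0.06 and 0.68, and Bcl2l11 by -0.26, -0.44 and 0.83. Bcl2l11 at P14 was past 2-fold with a pseudocount of 0.1 (1.04) or quantile normalization (1.09). At P14 the THY1 column holds the late meiotic transcripts given above. At P7 the choice of THY1 column matters. Against P7 VASA THY1, an alternative to P7 THY1 only if its uncertain age is P7, 6 of the 10 differences had the other sign. Mcl1 (1.06) and Trp53 (1.28) were then past 2-fold and higher in KIT cells, and Bcl2 (1.23) and Bbc3 (1.47) exceeded 1 at levels under 5 FPKM. Leydig markers moved with the KIT columns at all 3 ages. Summed over 7 genes they held 1129, 224 and 590.1 FPKM in KIT cells at P7, P12 and P14, against 117, 85.7 and 158 FPKM in THY1 cells. At P7 all 7 were past 2-fold higher in KIT cells, at P12 4 of 6 with 5 FPKM or more and at P14 6 of 7. Their part in the members' differences was not tested.

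Between ages in THY1 cells, 6 of 30 member differences were past 2-fold. From P0 to P7 Bax was higher (36.6 to 97.0 FPKM, 1.38 on the log2 scale), Bbc3 was higher (3.89 to 9.34 FPKM, 1.08) and Bak1 was lower (14.4 to 3.85 FPKM, -1.67). These are 3 of 8 members with 5 FPKM or more, against 23.5% of 10880 genes. From P7 to P12 Bbc3 was lower (9.34 to 3.08 FPKM, -1.34), 1 of 6 against 8.41% of 10018 genes, and Bax missed the bound at -0.98. From P12 to P14 Mcl1 (129 to 60.3 FPKM, -1.09) and Bcl2l11 (11.5 to 2.52 FPKM, -1.83) were lower, 2 of 5 against 32.5% of 10597 genes. Bcl2l1, at 0.93, was the only member more than 0.5 higher at this step. In their counted steps Bak1, Bbc3 and Bcl2l11 reached 5 FPKM in the higher column only, so the shares are no measure for them. Under median-ratio scaling the 6 calls (2 higher, 4 lower) became 7 (4 higher, 3 lower), with Trp53 from P0 to P7 (1.10) and Bcl2l1 from P12 to P14 (1.16) added and Mcl1 at that step lost (-0.87). P7 VASA THY1, of uncertain age, was also put in place of P7 THY1. Then 4 of 10 members had the other sign from P0 to P7 and 6 of 10 from P7 to P12. Bbc3 (-1.22 and 0.96) and Trp53 (-0.99 and 1.19) turned in both steps, and Mcl1, level in both, stood at -1.59 and 1.66.

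Between ages in KIT cells no member was counted, although Bcl2, under 5 FPKM throughout, was 3.93 times as high at P12 as at P14 as a plain ratio. The counts were 0 of 5 from P7 to P12, against 9.9% of 9962 genes, and 0 of 5 from P12 to P14, against 16.7% of 9842 genes. Bcl2 had the largest difference from P12 to P14, at -0.83, and Bak1 from P7 to P12, at -0.69. Trp53 differed by -0.12 and then by -0.69, while in THY1 cells it differed by -0.70 and then by -0.77. Bax was lower at P12 than at P7 by 0.61 and then higher at P14 by 0.36. Bcl2l1 differed by -0.01 and 0.25.

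The GFP-sorted cells give the age step from P0 to P7 in cells with less fibroblast signal (55.6 and 81.5 FPKM), though macrophage markers summed to 257 and 178 FPKM. Trp53 stood at 9.79 FPKM in P0 and 19.3 FPKM in P7 OCT4-GFP cells, a difference of 0.91 that was larger in size than that of 93.1% of the genes with 5 FPKM or more. In THY1 cells, other columns altogether, the step was 25.4 to 48.3 FPKM (0.90), larger than that of 72.5% of genes. With P7 VASA THY1, of uncertain age, in place of P7 THY1 this step of Trp53 was -0.99. If that label is right, the direction rests on which P7 column is used. If those cells came from P0, the swap does not bear on the step. Bax was higher at P7 in both as well (0.39 and 1.38), whereas Bbc3 was lower in OCT4-GFP (-0.41) and higher in THY1 cells. By the 2-fold rule 0 of 5 members were counted in OCT4-GFP cells, against 5.48% of 9482 genes. Between P7 ID4-GFP and P7 OCT4-GFP cells 0 of 5 members were counted, where 1.69% of 9157 genes were. Other cells differed between these columns, as all 6 macrophage, 6 Sertoli and 3 Leydig markers with 5 FPKM or more were past 2-fold lower in ID4-GFP cells. The difference of Bak1 (0.194 and 1.07 FPKM, -0.79) was the largest of the 10, at low values from 1 library each.

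Against the THY1 column of the same age, GFP-sorted cells had less Mcl1 and Trp53. At P0, OCT4-GFP cells differed in 5 of 7 members, against 36.3% of 11087 genes. Bcl2 (-2.70), Bak1 (-2.48), Mcl1 (-1.53) and Trp53 (-1.29) were lower and Bax (1.10) was higher, although Bax missed the bound under upper-quartile scaling (0.98) and quantile normalization (0.84). At P7, OCT4-GFP cells differed in 3 of 6 members, against 20.7% of 9996 genes, with Bbc3 (-2.36), Mcl1 (-1.53) and Trp53 (-1.28) lower. P7 VASA THY1 cells differed from P7 THY1 in 3 of 6, against 18% of 10042 genes. Those were again Bbc3 (-2.30), Trp53 (-1.89) and Mcl1 (-1.67). Both P7 comparisons use the same P7 THY1 column, so they are not separate evidence. Bcl2 and Bak1 at P0 and Bbc3 at P7 reached 5 FPKM in the THY1 column only. They entered these counts through the side where they are high, so the shares are no measure for them. Against P7 VASA THY1 the OCT4-GFP cells differed by 0.14 for Mcl1 and 0.62 for Trp53.

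**Figure D3:**
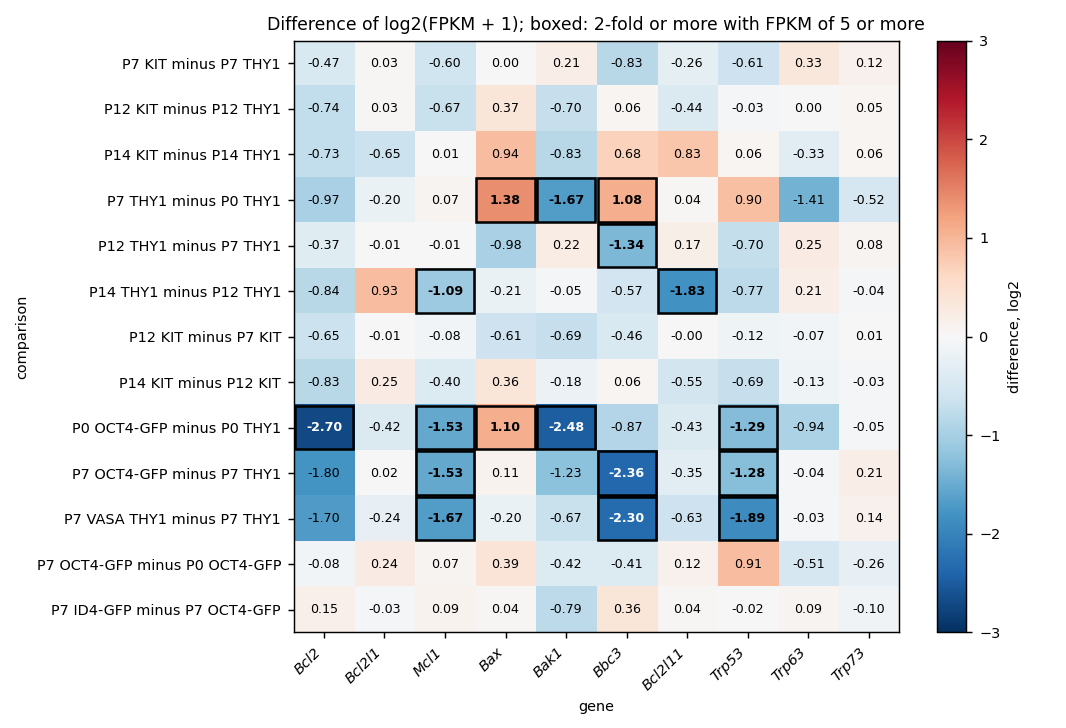
Differences of log2(FPKM + 1) (colour and printed value) for the 10 genes (x axis) in 13 comparisons (y axis, first group minus second), boxed where 2-fold or more with 5 FPKM or more in the higher group. No box lies in the 3 rows of KIT minus THY1 or the 2 rows of ages in KIT cells, and 11 boxes lie in the 3 rows that set GFP or VASA cells against THY1 cells.

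Over all bead columns against the GFP and VASA columns, an arrangement chosen after the values were seen, 3 members did not overlap. Mcl1 held 60.3 to 130.2 FPKM in the 7 bead columns and 40.3 to 47.5 FPKM in the other 4. Bbc3 held 1.76 to 9.34 FPKM against 1.01 to 1.67 FPKM. Bak1 held 2.06 to 14.4 FPKM against 0.194 to 2.05 FPKM. Of 12269 genes with 5 FPKM or more in some column, 5.54% had all bead columns above the other 4. Bak1 and Bbc3 reached 5 FPKM in only 1 column each, P0 THY1 and P7 THY1, both bead columns. They thus entered this set only through the side where they are high, so the share is no measure for them. The ranges of Bak1 nearly touch, at 2.06 and 2.05 FPKM. The GFP-sorted columns join selection by fluorescence, exclusion of dead cells, reporter mice and any separate preparation of the libraries. These move together here, so their parts in the difference from the bead columns cannot be told apart. How the P7 VASA THY1 cells were selected is uncertain.

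Immediate early genes, which respond within minutes to signals and handling, moved with these columns. Their list was added after the values were seen. Summed over 10 genes they held 209 to 1715 FPKM in the bead columns and 90.6 to 293 FPKM in the GFP and VASA columns. Across the 11 columns, which share no library but differ in cell makeup and depth, the log2 sum had Pearson's r of 0.80 with Mcl1, 0.97 with Bak1 and 0.56 with Bbc3. Endothelial markers gave 0.87, 0.81 and 0.75 with the same genes, fibroblast markers 0.64, 0.94 and 0.42, and red cell markers 0.55, 0.37 and 0.71. Endothelial markers, 6 of 6 in the table, held 5.83 to 176 FPKM and 5.73 to 18.04 FPKM in the same sets. The P7 THY1 and P7 VASA THY1 columns differed in both, with 573 against 293 FPKM for immediate early genes and 117 against 6.48 FPKM for endothelial markers. Sertoli markers went the other way (810 against 1189 FPKM). The part of any of these in the members' values was not tested.

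**Figure D4:**
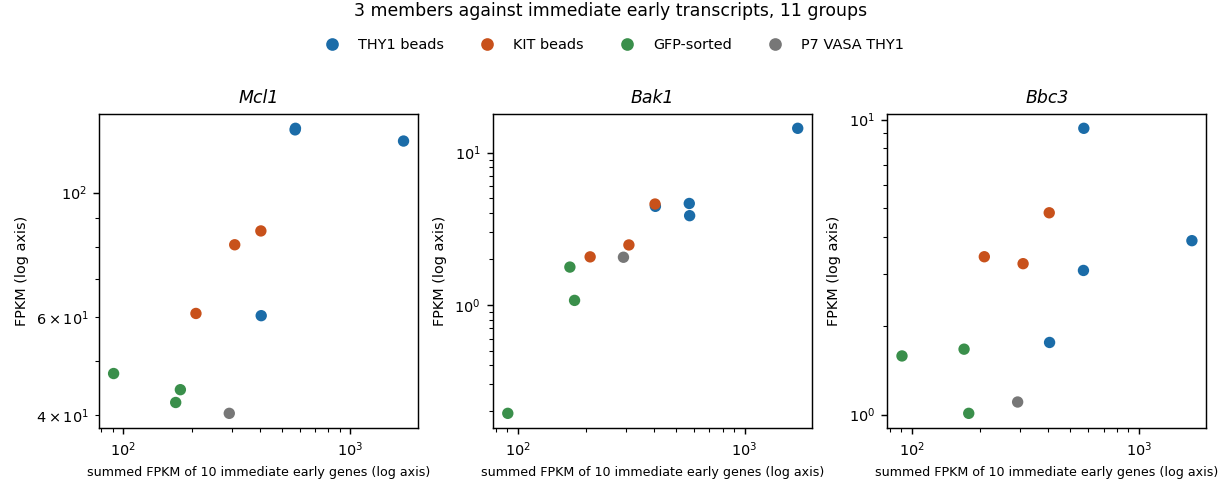
FPKM of Mcl1, Bak1 and Bbc3 (y axes, log) against the summed FPKM of 10 immediate early genes (x axes, log), 1 point for each of the 11 groups. The bead columns lie at 209 to 1715 FPKM on the x axis and the GFP and VASA columns at 90.6 to 293 FPKM, and P7 THY1 is the highest point for Bbc3 at 9.34 FPKM.

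The genes around p53 did not follow Trp53 as 1 group. Of 22 listed targets 20 were in the table. In KIT against THY1 cells, 0 were past 2-fold higher and 3 lower at P7, 1 higher and 3 lower at P12, and 3 higher and 1 lower at P14. Of these, 17, 17 and 14 targets had 5 FPKM or more, and the shares of all genes counted were 5.51%, 11.2% and 24.2%. Their median difference was -0.36, -0.29 and 0.27 beside the all-gene medians given above. Ddb2, of DNA damage recognition, stood at 89.0 against 23.2 FPKM in KIT and THY1 cells at P12 and at 89.3 against 15.9 FPKM at P14. Cdkn1a, the cell cycle inhibitor p21, stood at 7.52 against 26.1 FPKM at P12, and Ccng1, a cyclin gene, at 56.9 against 20.5 FPKM at P14. Pmaip1, the BH3-only gene of NOXA, stood at 10.2 against 25.6 FPKM at P7 and at 3.96 against 9.03 FPKM at P14.

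Cdkn1a, Fas and Mdm2 show how unlike the targets were across all groups. Cdkn1a stood at 19.7, 30.3, 26.1 and 2.15 FPKM in THY1 cells from P0 to P14 and between 0.920 and 4.72 FPKM in the GFP and VASA columns. Fas, a death receptor gene, stood at 5.68, 14.6, 56.8 and 1.28 FPKM in the same THY1 cells and between 0.0644 and 0.335 FPKM in the GFP and VASA columns. Mdm2, the ubiquitin ligase that removes p53, stayed between 47.9 and 82.7 FPKM in all 11. Pmaip1 was highest in the P0 columns, at 64.1 FPKM in OCT4-GFP and 43.3 FPKM in THY1 cells. The highest Trp53 column, P7 THY1, was thus also the highest for Cdkn1a and Bbc3, but not for Mdm2, Pmaip1, Ccng1, Ddb2 or Fas.

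**Figure D5:**
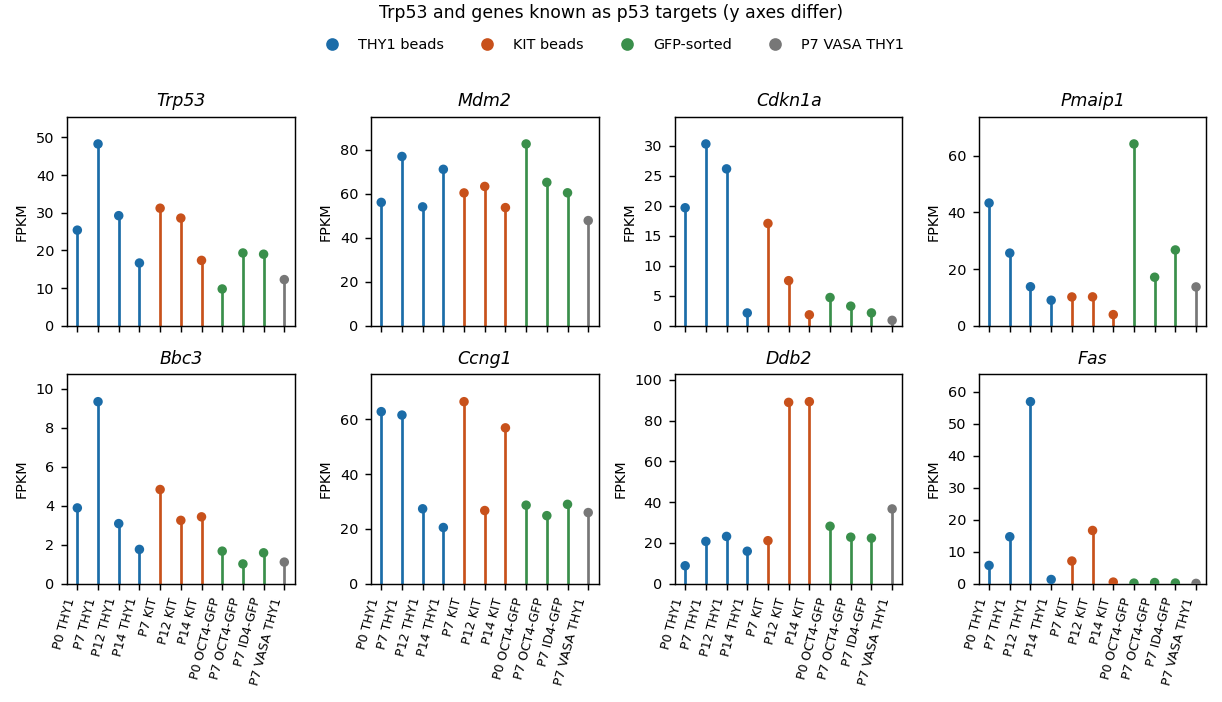
FPKM (y axes, linear from 0, a scale of its own per gene) of Trp53 and 7 genes known as p53 targets in the 11 groups (x axis), 1 point per group. Trp53, Cdkn1a and Bbc3 are highest in P7 THY1, Fas in P12 THY1 at 56.8 FPKM, and Ddb2 in P12 and P14 KIT at 89.0 and 89.3 FPKM.

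Of 15 regulators of p53, all with 5 FPKM or more, 0 were past 2-fold between KIT and THY1 cells at P7, 2 were higher in KIT cells at P12 and 3 at P14. None was lower at these ages. Over all genes 5.51%, 11.2% and 24.2% were counted, so the regulators' counts at P12 and P14 lie near the background. The damage kinase gene Atm stood at 72.7 against 25.8 FPKM in KIT and THY1 cells at P12, and at 53.6 against 17.8 FPKM at P14. Chek1, the checkpoint kinase gene, stood at 31.5 against 14.8 FPKM and at 41.3 against 12.5 FPKM at these ages. Cdkn2a, whose ARF product restrains MDM2, stood at 46.3 against 20.9 FPKM at P14.

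Of the 16 other BCL2 family genes, 9, 9 and 8 had 5 FPKM or more in KIT or THY1 cells at P7, P12 and P14. There 1 was past 2-fold higher and 1 lower at P7, 0 either way at P12, and 0 higher and 2 lower at P14, beside 5.51%, 11.2% and 24.2% of all genes. Bad, a BH3-only gene, stood at 11.7 against 4.69 FPKM in KIT and THY1 cells at P7 and at 14.2 against 35.9 FPKM at P14. Bcl2l2, the survival gene of BCL-W, which spermatogenesis requires, stood at 11.4, 21.2, 28.3 and 4.08 FPKM in THY1 cells from P0 to P14. In KIT cells it stood at 15.0, 15.3 and 4.56 FPKM. It was low at P14 in both, while Bcl2l1 was highest there in each series. Bok, a relative of the effectors, stood between 6.81 and 28.2 FPKM in all columns.

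Downstream of mitochondria, the apoptosome and caspase list of 20 had 0 higher and 1 lower past 2-fold at P7, 2 higher and 1 lower at P12, and 2 higher and 2 lower at P14 in KIT against THY1 cells. The genes with 5 FPKM or more numbered 19, 18 and 16, and the shares of all genes counted were again 5.51%, 11.2% and 24.2%. Apaf1, the scaffold of the apoptosome, stood at 16.4 against 7.62 FPKM in KIT and THY1 cells at P14. Cyct, the testis form of cytochrome c, stood at 53.02 against 285 FPKM at P14. Birc5, which encodes survivin and serves cell division, stood at 38.9 against 16.3 FPKM at P12.

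The death receptor list of 10 had 0 calls at P7 and P14 and 3 lower in KIT cells at P12, where 11.2% of all genes were counted. Of the 10, 7, 6 and 4 had 5 FPKM or more at P7, P12 and P14. At P12 Fas stood at 16.6 against 56.8 FPKM, the initiator caspase gene Casp8 at 8.50 against 22.2 FPKM and its inhibitor Cflar at 4.39 against 11.4 FPKM. At that age Sertoli markers summed to 685 FPKM in KIT cells against 1769 FPKM in THY1 cells. Their part was not tested.

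Over the 11 columns the 8 members with 1 FPKM or more in at least 2 columns were compared with 12269 genes by Pearson's r of log2(FPKM + 1), given here as a description, since the columns share ages, cell types and other cells. Bcl2 was nearest to Tspan2, Shisa4 and Itpripl2 (r of 0.98 to 0.99) and Bak1 to Bmp1, Pcdhgc3 and Acvrl1 (0.98 to 0.99). Mcl1 was nearest to 4930523C07Rik, Myc and Ptp4a1 (0.97 to 0.98), and Myc is among the immediate early genes above. Bax was nearest to Nop56, Utp6 and Wdr74 (0.95). Bcl2l1 was nearest to Bscl2, Chst1 and 4933430H15Rik (0.96), for which P14 THY1 weighs heavily, since Spearman's rho was 0.71 to 0.83. Bbc3 was nearest to Cyp51, Isg20 and 1500003O03Rik (0.92 to 0.93). Bcl2l11 was nearest to Tle4, BC024479 and Tmem2 (0.94 to 0.96) and Trp53 to Zfp295, Map2k3 and 4632427E13Rik (0.92 to 0.95). No member had another member among its nearest 3. Of the 8, Bcl2 and Mcl1 (0.88), Bcl2 and Bak1 (0.85) and Mcl1 and Trp53 (0.85) were the most alike, and Bax and Bak1 the most opposed (-0.75).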

How the data were processed

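Per the labels' protocols, directional libraries were built from total RNA after ribosomal RNA removal. The authors deposited FPKM in 1 table with 1 value per group. Per the submitters' processing notes, the tools include CASAVA, TopHat2 2.0.9 and Cufflinks 2.1.1, with mm9 as the build. The annotation, the use of strand and how libraries were combined are not given in the sources used here. The 8 bisulfite and 6 chromatin samples were not analysed here.

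Differences of log2(FPKM + 1) were computed in Python 3.11.15 with numpy 2.4.6 and pandas 2.3.3, and figures with matplotlib 3.10.9. A difference was counted at 2-fold or more with 5 FPKM or more in the higher column. The counting was tested on simulated data. Low values under 0.05 FPKM fall in steps, which give relative depth only. Against the step of P14 THY1, that of other columns was 0.957 to 2.04 times as large in 9 columns and 3.72 times in P7 THY1, where low values are then least precise; this last value is uncertain by a whole-number factor. No interval could be given without counts.

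The 10 members, the pathway and marker lists and the comparisons were chosen with earlier results of these data known. Named pathway genes were those past 2-fold in KIT against THY1 cells (at most 4 a list, by size) plus Mdm2, Cdkn1a, Bcl2l2, Bok, Pmaip1 and Apaf1; 1 other gene of this rule is not reported here. The nearest 3 genes by correlation were named for each member. The arrangement into bead and other columns, the immediate early list and the 5 alternatives that leave out columns were added after seeing the data. A limma test planned for tables with 1 column per library could not be used with a single value per group. Other pseudocounts, filters, fold bounds, scalings and P7 VASA THY1 in place of P7 THY1 were tried as alternatives. Symbols missing from the table were Tigar, Pidd1, Rhox5, Adgre1 and Hba-a1.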

Additional observations from a re-analysis of the deposited data

Results flagged for a closer look

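Bbc3, the gene of PUMA, had KIT minus THY1 differences of opposite sign at 2 ages, each above 0.5 in size, a bound set after seeing the data. On log2(FPKM + 1) the difference was -0.83 at P7 (4.83 against 9.34 FPKM) and 0.68 at P14 (3.43 against 1.76 FPKM), with 0.06 at P12. The change of sign itself was not tested, since each column has 1 value. The P7 value rests on the P7 THY1 column, and P7 VASA THY1 held 1.10 FPKM. Against that column, whose age is uncertain, the P7 difference was 1.47, the same sign as at P14.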

How the results depend on the processing

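No paired analysis was possible because the table holds 1 value per group, so the numbered replicates cannot be told apart; the fits that leave out a replicate were not run for the same reason. Under the 3 scalings 386 of 390 member differences moved by less than 1.5-fold, with a pseudocount of 0.1 111 of 130, and with P7 VASA THY1 in place of P7 THY1 16 of the 40 that use that column. The swap to P7 VASA THY1 takes its label as P7, though its age is uncertain. Other filters and fold bounds cannot move a difference, only its call. Upper-quartile and median-ratio scaling multiply each column by a single factor and shift the column medians by -0.16 to 0.18 (log2). They could hardly move a difference 1.5-fold, so their share of the 386 shows little. Quantile normalization shifts the column medians by -0.55 to 0.44 (log2) and kept 126 of 130 differences within 1.5-fold. For KIT against THY1 cells the count was 0 of 30, where only 6, 5 and 5 members at P7, P12 and P14 had the 5 FPKM needed to be counted. It became 1 with a pseudocount of 0.1, 1 with quantile normalization and 2 with P7 VASA THY1 in place of P7 THY1. For ages in THY1 cells the count of 6 became 0 at 4-fold and 3 without the P0 column. It became 8 under upper-quartile scaling and with P7 VASA THY1 in place of P7 THY1. For GFP and VASA cells the count of 11 became 4 at 4-fold, 5 with P7 VASA THY1 in place of P7 THY1 and 6 without the P0 THY1 column; the last 2 settings, and that without the P0 column, count fewer differences. With P7 VASA THY1 in place of P7 THY1, 19 of 40 differences had the other sign, and 4 of these had been past 2-fold: Bbc3 from P0 to P7 (-1.22) and from P7 to P12 (0.96), and Mcl1 (0.14) and Trp53 (0.62) in P7 OCT4-GFP cells; the cause was not tested. The count of 0 for ages in KIT cells held in the 7 alternatives run. The ratio of Bax to Bcl2l1 stayed at 0.940 to 1.05 times its value with a pseudocount of 1 in both and under quantile normalization. Both genes are far above 1 FPKM and rank high in every column, so these alternatives had little room to change the ratio.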
